A study of Mus musculus with 6 samples.

Results

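Tight junctions were examined through 9 genes: the claudins Cldn1, Cldn3, Cldn4, Cldn7 and Cldn8, occludin (Ocln), zonula occludens 1 (Tjp1), junctional adhesion molecule A (F11r) and cingulin (Cgn). The genes were taken by name, through the RefSeq accession that the array files give for each gene probe. They were read by 11 of the 55681 gene probes, with Cldn4 and Ocln read by 2 probes each, and all 9 were among the 22504 genes tested. RNA came from live CD45- cells sorted from mammary tumors, a fraction depleted of leukocytes. The tumors had grown in syngeneic C57BL/6 mice after orthotopic transplantation of late carcinoma cells. The transplanted cells carried the MMTV-PyMT transgene, a viral oncogene driven by a mammary-active promoter. They were labelled either RANK+/+ or RANK-/-, the latter lacking the receptor encoded by Tnfrsf11a. Cells of the host that lack CD45, such as fibroblasts, were not separated from the tumor cells by this sort. Each 2-color array held 1 RNA of each genotype, and each of 3 such pairs went onto an array A and its technical replicate B. The RNA labelled RANK-/- was in Cy5 in pair 1 and in Cy3 in pairs 2 and 3, so dye and pair cannot be told apart. The series' design text calls the RNAs biological replicates without saying whether each came from a tumor of its own, and p values measure only the spread between these 3 pairs.

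A tight junction seals the space between neighboring epithelial cells near their apical surface. Claudins form the strands that decide which ions and solutes pass, occludin and junctional adhesion molecules accompany them in the membrane, and cytoplasmic scaffolds such as ZO-1 and cingulin tie the strands to the actin cytoskeleton. In mammary epithelium the junctions separate milk from interstitial fluid, and several claudins are used as markers of an epithelial state in breast tumors.

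On the 6 arrays 51.9% to 58.8% of gene probes were well above background in a given channel, and all 11 junction probes met this mark for both labels in 6 of 6 arrays. Tnfrsf11a, read by 1 probe, had log2 ratios of 2.03, 1.15 and 1.76 in pairs 1, 2 and 3, that is, more signal in the channel labelled RANK-/-, which goes against the label. Where this probe lies relative to the deleted part of the gene is not given in the sources used here. Groups are therefore named below by the label of the channel, and every direction rests on those labels. Across genes, technical replicate arrays had a Pearson r of 0.973 to 0.983, whereas different pairs had an r of -0.279 to 0.178 (22502 genes, which are not independent replicates). Centring each array on its median in place of loess moved the medians of all genes to 0.13, -0.19 and -0.39 in pairs 1, 2 and 3, and that of the means to -0.14. Values under median centring are given below relative to these medians. In bulk RNA, fewer cells of a type and less RNA per cell cannot be told apart.

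None of the 9 junction genes differed between the RNAs labelled RANK-/- and RANK+/+ beyond the spread between pairs. The limma test called 0 of 9 (adjusted p 1.00 for each). The background was the same, with 0% of all genes called higher and 0% called lower. At an unadjusted p under 0.05 limma gave 0 of the 9, against 646 genes, or 2.87%, of all tested. The rank product, the kind of test the study used, also called 0 of the 9 at a proportion of false positives under 0.05, against 0.0444% of all genes called higher and 0.04% called lower. The mean log2 ratios of the 9 genes ran from -0.48 for Cldn1 to 0.37 for Cldn4. Their median was -0.04 where that of all genes was 0.0044. The 9 genes did not move as a block, since 7 of them had both positive and negative ratios among the 3 pairs.

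**Figure D1:**
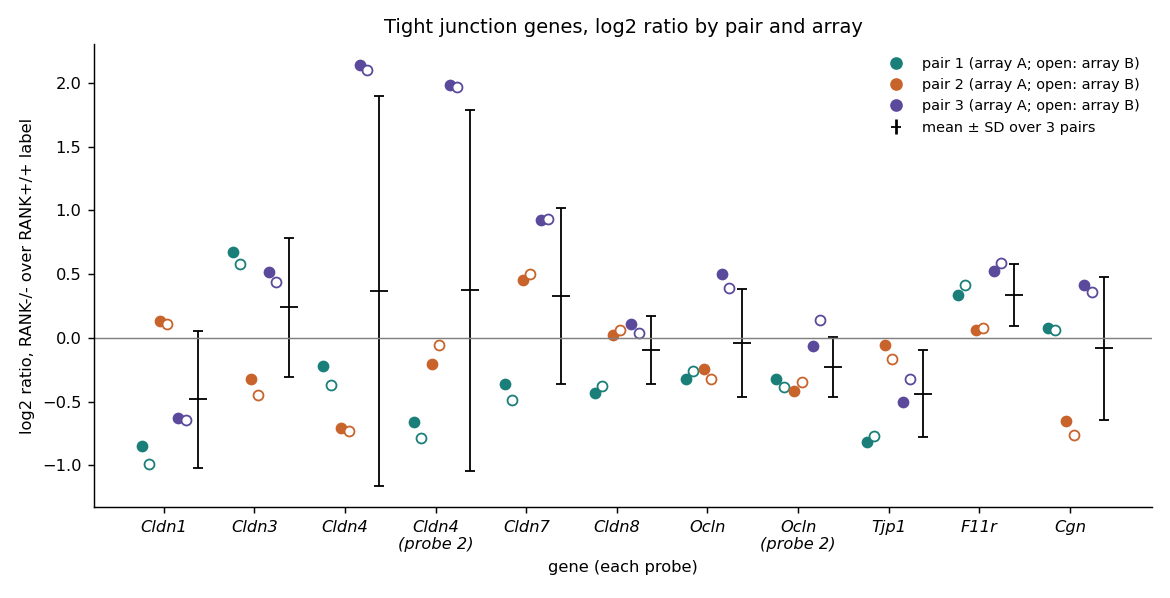
Log2 ratio of the RNA labelled RANK-/- over that labelled RANK+/+ (vertical axis) for each probe of the 9 junction genes (horizontal axis). Filled points are array A, open points array B, colors are pairs, and bars are the mean ± SD over 3 pairs. Arrays A and B lie close together while pairs spread apart, most for Cldn4, whose first probe lay at -0.30, -0.72 and 2.12. Ratios are those after intensity loess. Relative to all genes, the mean of Cldn3 is -0.06 under median centring.

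Promoter windows from RefSeq (assembly GRCm38.p6, 250 bases before to 50 after a gene start) were found for 8 of the 9 genes, with 2 starts each for Cldn7 and Ocln. Cldn8 had no entry. A pair of motifs was searched on both strands. AACCGGTT, a palindrome bound by Grainyhead-like factors, was in 0 of the 10 windows, against 0.146% of all 32851 promoter windows. CAGGTG, the E-box bound by SNAI and ZEB repressors, was in 6 of the 10 windows, belonging to 5 genes (Cldn3, Cldn4, Cldn7, Ocln and F11r), against 20.2% of all windows. The 2 Ocln windows overlap, and the site at -213 in one is the site at 8 in the other, so these windows are not separate. The letters alone do not show binding. The windows of 4 genes are printed, picked by array values or by place on the chromosome. Cldn4 had the largest spread between pairs, and Cldn3 is its neighbor on chromosome 5. Tjp1 and F11r were the members with ratios of one sign. A link between windows and ratios was not tested. Capitals mark CAGGTG or its reverse complement CACCTG, and each is read 5′ to 3′ along the gene's strand.
Cldn4 promoter, chr5:134946885-134947184, minus strand: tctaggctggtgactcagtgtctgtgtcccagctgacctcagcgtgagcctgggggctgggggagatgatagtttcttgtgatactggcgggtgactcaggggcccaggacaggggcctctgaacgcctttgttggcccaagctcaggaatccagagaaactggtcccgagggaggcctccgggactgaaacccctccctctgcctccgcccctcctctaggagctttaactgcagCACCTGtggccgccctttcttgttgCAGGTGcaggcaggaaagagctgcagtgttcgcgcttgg
Cldn3 promoter, chr5:134985964-134986263, plus strand: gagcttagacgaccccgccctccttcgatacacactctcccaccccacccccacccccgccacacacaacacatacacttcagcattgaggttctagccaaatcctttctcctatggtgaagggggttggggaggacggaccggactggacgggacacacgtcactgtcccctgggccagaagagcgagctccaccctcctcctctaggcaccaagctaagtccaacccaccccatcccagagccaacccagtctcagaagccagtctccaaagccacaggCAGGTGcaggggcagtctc
F11r promoter, chr1:171437311-171437610, plus strand: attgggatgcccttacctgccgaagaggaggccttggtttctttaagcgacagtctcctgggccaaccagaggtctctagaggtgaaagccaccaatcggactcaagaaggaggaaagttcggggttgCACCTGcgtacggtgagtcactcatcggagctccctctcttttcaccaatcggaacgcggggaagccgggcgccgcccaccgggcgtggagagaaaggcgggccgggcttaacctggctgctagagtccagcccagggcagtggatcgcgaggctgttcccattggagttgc
Tjp1 promoter, chr7:65371195-65371494, minus strand: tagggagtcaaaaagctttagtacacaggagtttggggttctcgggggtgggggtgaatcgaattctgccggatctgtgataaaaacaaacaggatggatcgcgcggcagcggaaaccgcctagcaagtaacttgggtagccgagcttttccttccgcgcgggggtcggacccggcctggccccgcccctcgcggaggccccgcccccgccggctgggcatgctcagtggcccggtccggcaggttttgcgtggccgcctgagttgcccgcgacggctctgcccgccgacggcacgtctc
The Cldn4 window held the motif at 2 places, which began at -14 and 12 relative to the gene start. In the Cldn3 window it began at 32 and in the F11r window at -122. The Tjp1 window had none, nor did those of Cgn and Cldn1. GC content was 61% in the Cldn4 window, 60.7% in that of Cldn3, 60.3% in that of F11r and 65.3% in that of Tjp1.

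Among the claudins, Cldn4 varied most. Cldn4 is a barrier claudin of many epithelia and a receptor for a clostridial enterotoxin. Its log2 level in the RNAs labelled RANK-/- was 12.23, 11.95 and 13.54 in pairs 1, 2 and 3, and 12.53, 12.68 and 11.42 in those labelled RANK+/+. The highest and the lowest of the 6 values both came from pair 3, and the groups overlapped. The log2 ratios were -0.30, -0.72 and 2.12, a 4.35-fold higher signal in pair 3 and a 1.65-fold lower one in pair 2. The mean was 0.37 ± 1.53 (SD, n = 3; SE 0.62), and limma gave an unadjusted p of 0.581. The second Cldn4 probe gave ratios of -0.72, -0.13 and 1.97, the same sign in each pair. Without pair 3 the mean of Cldn4 became -0.51, and with a term for dye it became 0.20. After loess at offset 50, Cldn4 alone of the 9 genes differed by at least 2-fold in any pair. Cldn1 also did so in pair 1 with offsets of 0 and 16, processed signals and the series table. In pair 3 Cldn1 did so with an offset of 0 (-1.01) and with processed signals (-1.11). Over all genes, 4.91% were at least 2-fold higher in pair 3. The SD between pairs was 23.9 times the SD between technical replicate arrays, and it lay at the 98.4th percentile of all genes.

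Cldn3, which lies next to Cldn4 on chromosome 5 with no protein-coding gene between them, followed another course. This claudin is abundant in simple epithelia and shares the enterotoxin receptor role. Its log2 levels were 15.80, 15.23 and 15.81 in the RNAs labelled RANK-/- and 15.18, 15.61 and 15.33 in those labelled RANK+/+. Pairs 1 and 3 were higher under the RANK-/- label (0.62 and 0.48) and pair 2 was lower (-0.39), so the groups overlapped. The mean was 0.24 ± 0.55 (SD, n = 3), and under median centring it stood at -0.06 relative to all genes. Without pair 1 it became 0.05, and without pair 2 it became 0.55. The neighbors had ratios of the same sign in pairs 2 and 3 and of opposite sign in pair 1, and in pair 3 the Cldn3 ratio was -0.14 relative to all genes under median centring.

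Cldn7, a claudin found along the basolateral membrane as well as in the junction, had levels of 13.75, 14.76 and 14.83 under the RANK-/- label and 14.18, 14.28 and 13.90 under the RANK+/+ label. Its ratios were -0.42, 0.48 and 0.93. The value in pair 1 was the lowest of the 6 and those in pairs 2 and 3 the highest, all under the RANK-/- label. The mean of 0.33 ± 0.69 (SD, n = 3) became 0.03 without pair 3 and 0.70 without pair 1. It was 0.14 with a term for dye and 0.09 relative to all genes under median centring.

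Cldn1 is a barrier claudin that is often reduced in breast tumors. Its levels were 7.18, 8.03 and 6.79 in the RNAs labelled RANK-/- and 8.10, 7.91 and 7.43 in the others. The RNA labelled RANK-/- was lower in pairs 1 and 3 (-0.92 and -0.64) and near its partner in pair 2 (0.12). The mean of -0.48 ± 0.54 (SD, n = 3; SE 0.25) was the lowest of the 9 genes, with an unadjusted p of 0.122 by limma. This probe was dim, with median spot signals of 70 to 275 over local backgrounds of 33 to 74, and its ratios depended on the background correction. With processed signals they were -1.37, 0.21 and -1.11 (mean -0.76), and with an offset of 0 they were -1.27, 0.16 and -1.01 (mean -0.71). Without pair 1 the mean was -0.26 and without pair 2 it was -0.78.

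Cldn8, a claudin of tight epithelia that limits sodium passage, had the mean ratio nearest 0 among the 5 claudins described here after loess. Its levels were 10.42, 11.41 and 11.05 under the RANK-/- label and 10.83, 11.37 and 10.97 under the RANK+/+ label. The ratios were -0.41, 0.04 and 0.07, and the small positive values in pairs 2 and 3 were -0.06 and -0.14 relative to all genes under median centring. The levels of both labels overlapped, with pair 1 lowest and pair 2 highest under each label. The mean was -0.10 ± 0.27 (SD, n = 3), and it became 0.06 without pair 1.

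Occludin, a membrane protein with MARVEL domain that accompanies the claudin strands, was nearly constant in the RNAs labelled RANK+/+ by its brighter probe. Its levels there were 9.51, 9.49 and 9.52, while the RNAs labelled RANK-/- had 9.22, 9.20 and 9.97. A pair of these lay below and 1 above all RANK+/+ values. The ratios of -0.29, -0.29 and 0.45 averaged -0.04 ± 0.42 (SD, n = 3), and the mean became 0.08 without pair 1 and 0.08 without pair 2. The second, dimmer probe gave -0.35, -0.38 and 0.04, so the probes were alike in pairs 1 and 2 and apart in pair 3. By the second probe the RANK+/+ levels were 7.37, 7.90 and 7.58, which is not nearly constant.

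F11r encodes JAM-A, an immunoglobulin-like adhesion protein that recruits polarity proteins to new contacts. Its levels were 13.55, 13.50 and 13.65 in the RNAs labelled RANK-/- and 13.17, 13.42 and 13.10 in those labelled RANK+/+. All 3 of the former were above all 3 of the latter. The ratios of 0.38, 0.07 and 0.56 were above 0 in every pair, but in pair 2 the ratio was -0.0041 with processed signals, -0.0065 in the series table and, relative to all genes, -0.16 under median centring. The mean was 0.33 ± 0.25 (SD, n = 3; SE 0.17), with an unadjusted p of 0.108 and an adjusted p of 1.00 by limma. Median centring left 0.16 relative to all genes.

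Tjp1 encodes ZO-1, the scaffold that binds claudins, JAM-A and actin. Its levels of 10.75, 11.06 and 11.004 in the RNAs labelled RANK-/- were all below the 11.55, 11.17 and 11.42 of the RNAs labelled RANK+/+. The ratios were -0.79, -0.11 and -0.41, and they stayed below 0 in each pair under the 7 other normalizations and summaries. Of these the mean over probes could not differ, as Tjp1 had 1 probe. The mean of -0.44 ± 0.34 (SD, n = 3; SE 0.19) had the smallest unadjusted p of the 9 genes, 0.0767, and an adjusted p of 1.00 by limma. It ranged from -0.66 to -0.42 over the other settings and from -0.60 to -0.26 when a pair was left out. The -0.66 came under median centring, where the mean stood at -0.52 relative to all genes. Both Tjp1 and F11r are thus single genes with one sign in 3 pairs: 1 of 9 was higher in every pair against 9.93% of all genes, and 1 of 9 was lower in every pair against 9.65% (19.6% for either direction). Levels of the 2 labels failed to overlap in the same 2 members, 1 in each direction, against 3.66% of all genes for higher and 3.82% for lower.

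Cingulin links ZO proteins to actomyosin and to RhoA regulators. Cgn levels were 12.30, 11.55 and 12.51 under the RANK-/- label and 12.23, 12.25 and 12.12 under the RANK+/+ label. The RANK+/+ values lay close together, and the RANK-/- value of pair 2 stood below the other 5. The ratios of 0.07, -0.71 and 0.39 averaged -0.08 ± 0.56 (SD, n = 3), and the mean became 0.23 without pair 2.

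**Figure D2:**
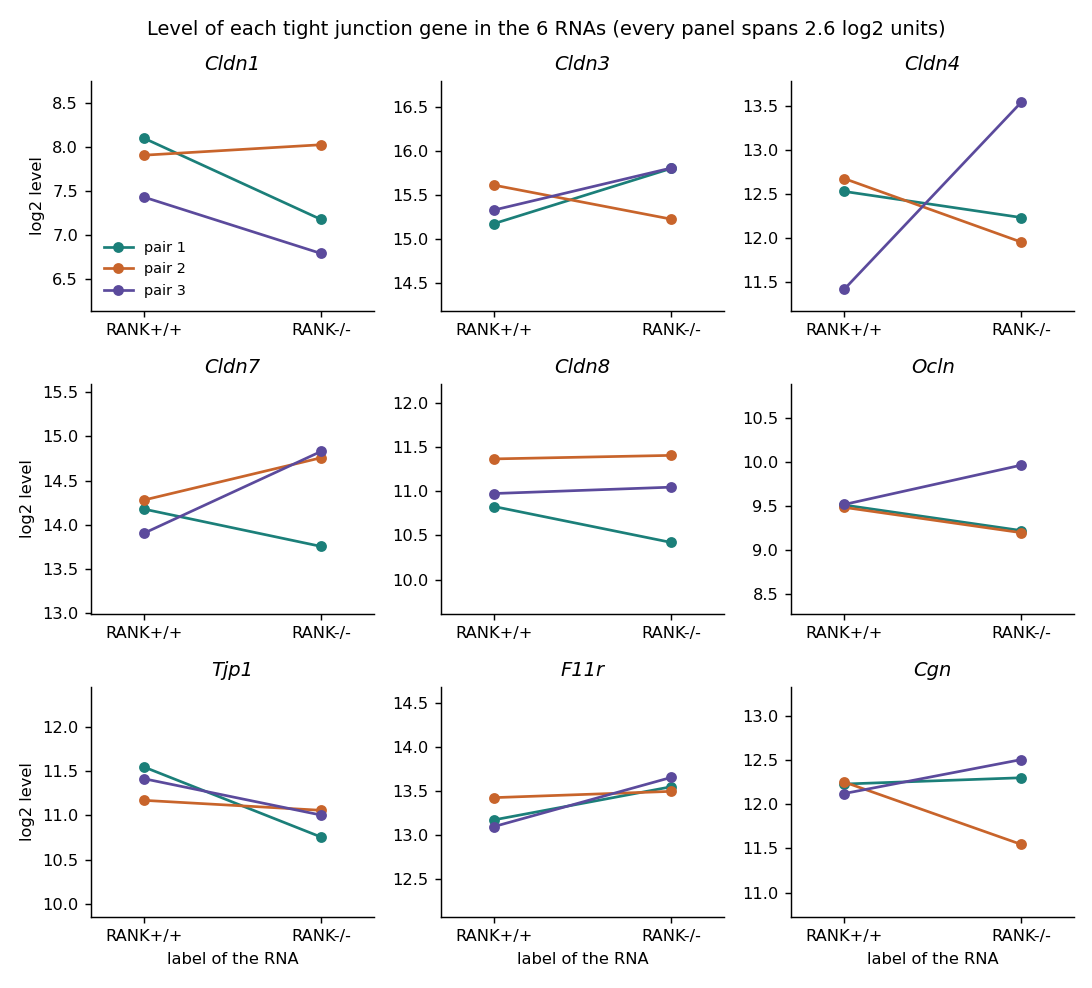
Log2 level after loess and Aquantile (vertical axis, same span in each panel) of the 9 junction genes in the RNA labelled RANK+/+ and the RNA labelled RANK-/- of each pair (horizontal axis). Lines join the RNAs that shared arrays and colors are pairs. Slopes differ in sign between pairs for 7 of the 9 genes, while the levels of Tjp1 are all lower (10.75 to 11.06 against 11.17 to 11.55) and those of F11r all higher (13.50 to 13.65 against 13.10 to 13.42) under the RANK-/- label. For F11r the order in pair 2 turns under 3 other scalings, processed signals, the series table and median centring.

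Members of both signs were present in every pair. Ratios were above 0 for 3 of 9 genes in pair 1, 4 of 9 in pair 2 and 7 of 9 in pair 3, where 52%, 48.3% and 50.1% of all genes were above 0. The medians over the 9 genes were -0.30, -0.11 and 0.45, against 0.015, -0.012 and 0.0009 over all genes. Under median centring Cldn3 and Cldn8 were below the median of all genes in pair 3, which leaves 5 of 9 above it. The SD between pairs exceeded the SD between technical replicate arrays for 9 of 9 genes and for 92.5% of all genes, by 3.89-fold for Tjp1 up to 23.9-fold for Cldn4. The members' share is near that of all genes, and the spread between pairs is what the genotype difference was tested against.

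The genes with ratios most like those of Cldn4 were sought among all tested genes with a RefSeq symbol, by the root mean square difference over the 3 pair ratios. Arg1, an arginase of the urea cycle, came first (-0.38, -0.81 and 2.01; difference 0.0948). Krt8, a keratin of luminal cells, came second (-0.41, -0.55 and 2.08; difference 0.119). Lypd3, a surface protein of stratified epithelium, came next (-0.58, -0.62 and 2.14; difference 0.171). A likeness over 3 values is a description of these pairs.

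The rest of the tight junction was read from lists of other claudins, membrane proteins and plaque proteins. Of 22 other claudins 13 were tested, and limma called 0 higher and 0 lower. Cldn22 (0.16, 1.02 and 0.80; mean 0.66 ± 0.45), Cldn5, the claudin of endothelium (0.72, 0.14 and 0.81; 0.55 ± 0.36), and Cldn15, a pore claudin (0.02, 0.02 and 0.19; 0.08 ± 0.10), were above 0 in all 3 pairs. The Cldn22 probe exceeded background clearly in 6 of 6 arrays under the RANK-/- label and in 4 of 6 under the other. The median of the claudin list was 0.16, -0.06 and 0.04 in the 3 pairs.

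Of 15 other membrane proteins 14 were tested and 0 were called. Ratios were above 0 for 11 of 14 in pair 1, 2 of 14 in pair 2 and 11 of 14 in pair 3, with medians of 0.32, -0.33 and 0.51. Of all genes 52%, 48.3% and 50.1% were above 0, and 18.8% ran above, below and above 0. The course was not particular to this list. The luminal markers read below had 6, 1 and 7 of 10 above 0, and the activators 7, 1 and 9 of 13. Igsf5, which encodes JAM-4, showed this course most widely (1.45, -1.39 and 1.34), and was picked out after its values were seen. Jam3 (0.08, 0.43 and 0.96; 0.49 ± 0.44) was above 0 and the claudin-like Tmem47 (-0.31, -0.22 and -0.74; -0.42 ± 0.28) below 0 in all 3 pairs.

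Of 22 names of plaque and scaffold proteins 18 were tested and 0 were called. Magi3, a scaffold with PDZ domains, was above 0 throughout (0.52, 0.31 and 0.95; 0.59 ± 0.33), and the angiomotin-like proteins Amotl2 (-0.44 ± 0.26) and Amotl1 (-0.33 ± 0.19) were below 0 throughout. The list's medians were 0.07, -0.13 and 0.08. Among 10 tested genes of the PAR polarity complex, Pard6g (-0.82 ± 0.70) and Pard3 (-0.20 ± 0.12) were below 0 in all pairs and Cdc42 above (0.29 ± 0.21). Among 11 tested adherens junction genes, Cdh3, which encodes P-cadherin, was below 0 throughout (-0.80, -0.34 and -1.09; -0.74 ± 0.38, unadjusted p 0.0182 by limma). Nectin1 was also below 0 (-0.34 ± 0.49), and Ctnna1 was above (0.20 ± 0.06; -0.03 relative to all genes under median centring). The test called 0 genes of these lists.

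**Figure D3:**
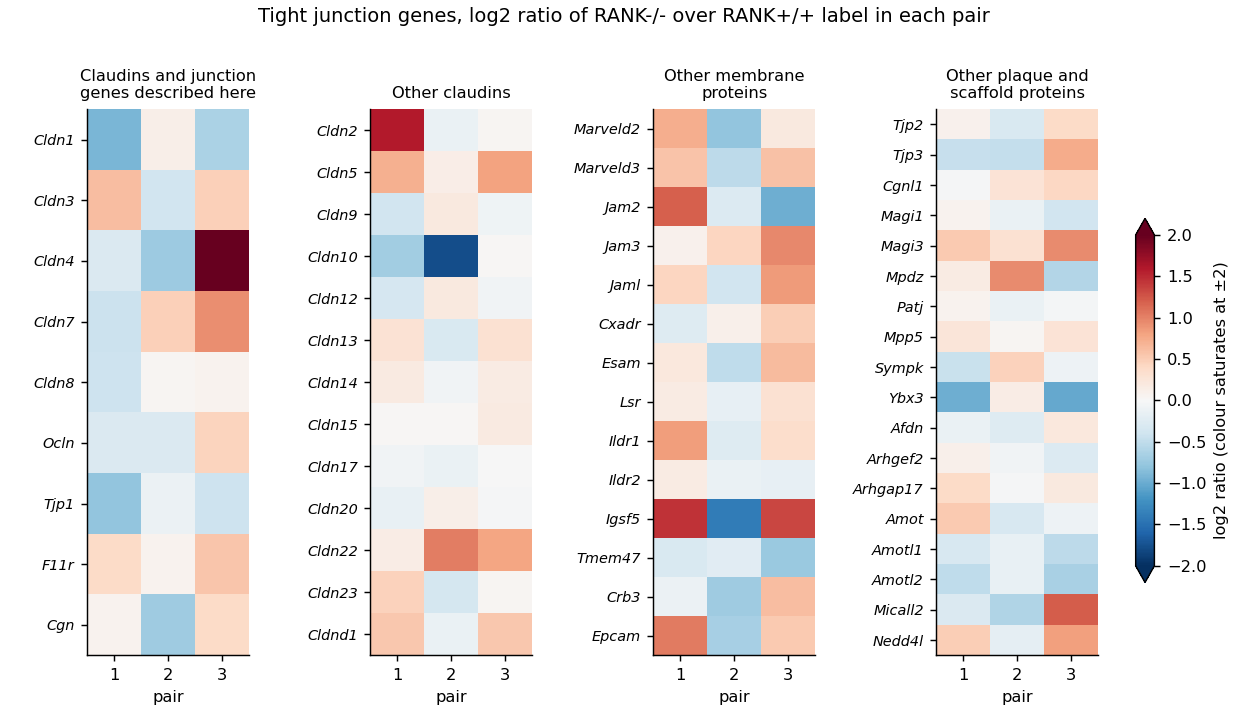
Log2 ratio of the RNA labelled RANK-/- over that labelled RANK+/+ (color, saturating at ±2) for each tested tight junction gene (rows) in pairs 1, 2 and 3 (columns), in 4 groups of genes. Few rows keep one color across pairs. Among the other membrane proteins 11 of 14 genes are above 0 in pairs 1 and 3 but 2 of 14 in pair 2. Of all genes 52%, 48.3% and 50.1% are above 0 in pairs 1, 2 and 3. The colors are ratios after intensity loess.

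Transcription factors known to repress or activate epithelial junction genes were read next. Of 8 tested repressors 0 were called. Their medians were 0.16, 0.21 and 0.36 in the 3 pairs, with 5, 5 and 4 of 8 above 0. In all pairs 2 were above 0 and 1 below, against 9.93% and 9.65% of all genes. Snai1, Snai3, Twist1, Twist2 and Tcf3 had ratios of both signs. Zeb2 was above 0 in each pair (1.00, 0.67 and 1.07; mean 0.91 ± 0.21, unadjusted p 0.00360 by limma, adjusted p 1.00). Its levels were 8.38, 7.83 and 7.88 under the RANK-/- label and 7.38, 7.17 and 6.81 under the RANK+/+ label, without overlap. The array held 2 Zeb2 probes, of which 1 stood for the gene. The Zeb2 mean ranged from 0.51 to 1.37 over the 15 other settings. Zeb1 was likewise above 0 throughout (1.01, 0.30 and 0.86; 0.72 ± 0.38), whereas Snai2 was below 0 in each (-0.36, -0.48 and -0.58; -0.47 ± 0.11). Snai1 ran -1.12, 0.72 and 1.61. The signs of the Zeb1, Zeb2 and Snai2 means were kept in all 15 other settings and without each pair. Some of these settings changed the filter or the error term and not the ratios, so a kept sign there carries no weight.

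Of 13 tested activators 0 were called. Grhl2, which binds claudin and cadherin genes, was near 0 in pairs 1 and 2 (-0.0065 and -0.05) and at 0.36 in pair 3. Ovol2 (0.58, -0.17 and -0.25) and Elf3 (0.30, -0.89 and 1.00) differed between pairs. Relative to all genes under median centring, the means were -0.0047 for Grhl2, -0.04 for Ovol2 and 0.09 for Elf3. Grhl3 (-0.44 ± 0.49) and Esrp2 (-0.40 ± 0.23) were below 0 and Spint1 (0.35 ± 0.35) above 0 in all 3 pairs.

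The cell makeup of the sorted fraction was read from marker lists. Luminal markers were present throughout, with ratios of -0.41, -0.55 and 2.08 for Krt8, 0.45, -1.34 and 1.66 for Krt18, 1.05, -0.67 and 0.53 for Epcam and 0.27, -0.47 and -0.15 for Cdh1. Krt19, named after its values were seen, had the lowest mean of the list (-1.22, -3.95 and 0.03; -1.71 ± 2.04). The luminal list had medians of 0.36, -0.69 and 0.38, with 6, 1 and 7 of 10 genes above 0, and its mean log2 level ran from 12.47 to 13.74 in the RNAs labelled RANK-/- and from 13.25 to 13.51 in the others. Its lowest value was the RNA labelled RANK-/- of pair 2, as for Cgn and for Ocln by its brighter probe. The other junction genes had their lowest value elsewhere, and the likeness was picked out after the values were seen. Foxa1 was the luminal gene below 0 in all pairs (-1.24 ± 0.76), and Oxtr the basal gene above 0 in all pairs (0.89 ± 0.89). Oxtr did not stand for its list. The basal list had medians of 0.0012, 0.02 and -0.13, with 5, 5 and 3 of 9 genes above 0. The median of its mean ratios was -0.32.

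The limma test called 0 genes of any marker list. Fibroblast markers had more signal under the RANK-/- label in pairs 2 and 3, with medians of 0.0039, 0.86 and 1.94 over 9 genes and 5, 8 and 9 of them above 0. Col1a1 (0.68, 0.30 and 1.94), Col1a2 (0.61, 0.85 and 2.38) and Dpt (0.0039, 1.51 and 1.54) were above 0 in every pair. The level of this list, as a mean log2 level over its genes, was 12.38 to 12.91 under the RANK-/- label and 11.03 to 12.33 under the RANK+/+ label. The 9 junction genes averaged 11.69 to 12.13 and 11.69 to 12.02. Endothelial markers had medians of 0.02, -0.10 and 0.52, with Cldn5 the gene above 0 in all 3 pairs and Pecam1 at 0.02, -0.25 and 0.29 (9 of 9 tested). Of 11 leukocyte markers 8 were tested, with medians of -0.34, 0.22 and 0.13 and 2, 7 and 7 of 8 above 0. Ptprc, which encodes CD45, exceeded background clearly in 5 of 6 arrays under the RANK-/- label and in 4 of 6 under the RANK+/+ label, with ratios of -0.93, 0.10 and 0.14. Cd3e was at 0.02, 0.20 and 0.01. Cd3e, Itgam, Lyz2, Csf1r and Cd52 exceeded background clearly in 6 of 6 arrays under both labels. Adgre1 and Laptm5 did so in 6 of 6 under the RANK-/- label and in 4 of 6 under the other. The pair with the largest Cldn4 ratio, pair 3, also had the largest Krt8, Krt18, Krt19 and Col1a1 ratios of the 3 pairs, while Epcam, Cdh1 and Kit were largest in pair 1 and Prom1 in pair 2. These markers were picked out after their values were seen, and the part of cell makeup in the junction gene ratios was not tested.

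**Figure D4:**
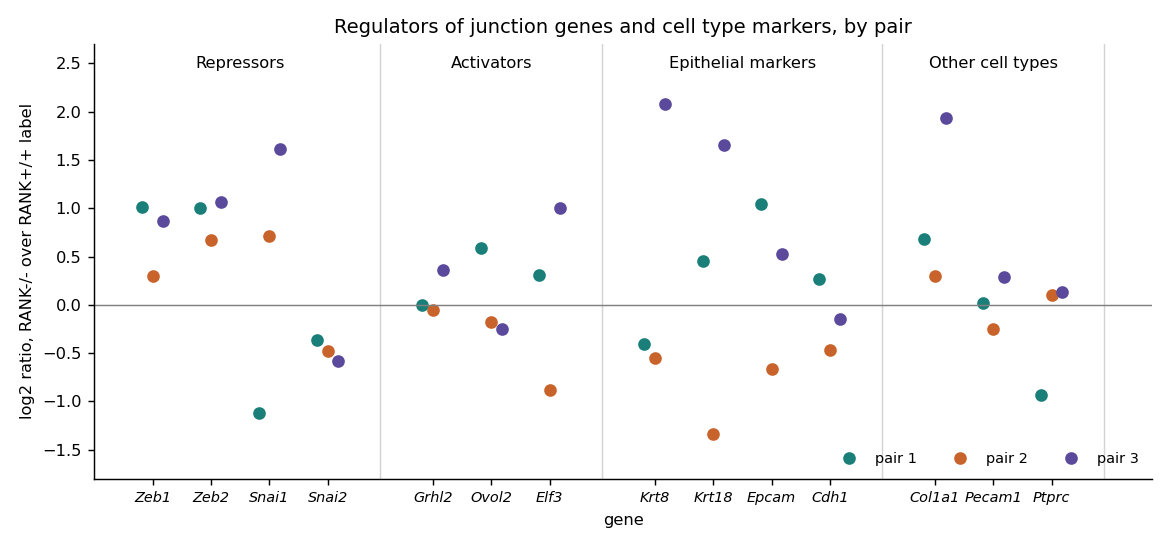
Log2 ratio of the RNA labelled RANK-/- over that labelled RANK+/+ (vertical axis) for regulators of junction genes and for markers of epithelium, fibroblasts (Col1a1), endothelium (Pecam1) and leukocytes (Ptprc), with 1 point per pair. Zeb1 and Zeb2 lie above 0 and Snai2 below 0 in all 3 pairs, whereas Krt8 and Krt18 run from -0.55 to 2.08 and from -1.34 to 1.66. Relative to all genes, the means of Krt18, Grhl2 and Ovol2 are below 0 under median centring in place of loess (-0.13, -0.0047 and -0.04).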

How the data were processed

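RNA from sorted CD45- tumor cells was measured on 6 two-color SurePrint G3 Mouse arrays. The authors extracted spots with Agilent Feature Extraction 10.7.3.1 (submitters' processing notes). The deposited tables hold each spot's median intensity and background in both channels, not normalized, along with that software's processed signals. The deposited series table holds log2 ratios normalized by the authors, which ran as RANK-/- over RANK+/+ (r of 0.825 to 0.858 with the scanner ratios).

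Median signals were background-corrected (normexp, offset 50) and normalized by intensity loess and Aquantile in limma 3.58.1 (R 4.3.3), and spots, then arrays A and B, were averaged. A probe stayed when, for one label, it passed Feature Extraction's background test in both arrays of 2 or more pairs (30231 of 55681, 54.3%). RefSeq names (GRCm38.p6) matched 28026 probes. The probe of highest mean intensity stood for a gene. The 3 pair ratios were tested with limma (lmFit and eBayes, two-sided, Benjamini-Hochberg over 22504 genes, threshold 0.05) and by rank product with exact p values. An exact sign-flip test with 3 pairs cannot go below p = 0.25. Precision is limited by the number of pairs, which is 3.

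The methods describe dye swaps, but the labels give A and B of a pair the same dyes. RNAs of a pair shared arrays, from which the pairing comes, and their deviations from the label means correlated by -0.03, -0.22 and -0.04.

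All 9 junction genes were named with every probe. From the other lists the genes with one sign in all pairs were named, at most 3 per list, with defining markers and main regulators. Members and lists were chosen with earlier results of these data known. Procedures were tested on simulated data. Alternatives covered background offset, normalization, filters, probe summaries, technical replicates, dye, pairing and leaving out each pair.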

Additional observations from a re-analysis of the deposited data

How the results depend on the processing

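Of the 9 junction genes 0 passed the threshold in each setting run, the exact rank product included. The counts over all genes depended on how technical arrays were handled: 0 by limma on 3 pairs, 13 with the pair as a random block over 6 arrays, 298 with the 6 arrays as separate replicates and 19 by rank product. Without the replicate block, the 3 RNAs of each label set against each other, limma called 0 genes. In that setting 2 of the 9 junction genes and 830 of all 22504 genes had a limma p below 0.05 before adjustment. Under median centring Cldn3 became -0.20 and Cldn7 -0.048 on the log2 scale where the median of all genes was -0.14, so relative to it they stood at -0.06 and 0.09. No other mean of the 9 genes turned in the 15 settings besides leaving out a pair. Settings that changed only the filter or the error term left these means as they were. Leaving out 1 pair turned Cldn4 (-0.51 without pair 3), Cldn8 (0.056 without pair 1), Ocln (0.079 without pair 1 and 0.078 without pair 2) and Cgn (0.23 without pair 2). The ranges with 1 pair left out were -0.78 to -0.26 for Cldn1, 0.05 to 0.55 for Cldn3, -0.51 to 0.91 for Cldn4, 0.03 to 0.70 for Cldn7, -0.18 to 0.06 for Cldn8, -0.29 to 0.08 for Ocln, -0.60 to -0.26 for Tjp1, 0.22 to 0.47 for F11r and -0.32 to 0.23 for Cgn. The median over the 9 genes ranged from -0.29 to 0.23 and the counts past the threshold stayed at 0. The cause of these turns was not tested. Only pair 1 had the RANK-/- label in Cy5, so a dye effect on a probe cannot be told apart from a difference between pairs. A term for dye moved Cldn4 to 0.20, Cldn7 to 0.14, Cldn8 to -0.18, Ocln to -0.11 and Cgn to -0.04, all without a call, and processed signals moved Cldn1 to -0.76. The Cldn1 probe and the second Ocln probe had signals close to background.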
